A study of Homo sapiens with 5 samples.

Results

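The genes examined here encode the proteins that destroy messenger RNA in human cells. They comprised 45 members chosen by name from knowledge of the pathway, but with earlier results of these data known. Among them were 8 factors of nonsense-mediated decay (NMD), 13 of deadenylation, 6 of decapping and 2 exonucleases that work from the 5′ end. The others were 13 of the exosome with the DIS3 enzymes, and 3 proteins that bind AU-rich elements. Of the 45 members, 44 had 10 or more counts in at least 2 of the 5 libraries. The same 44 were among the 13075 genes tested out of 57221 rows. The remaining member, PARN, a poly(A)-specific ribonuclease, was listed at 0 in all 5 libraries. The genes LSM2, DXO and SKIV2L of the same pathway were also listed at 0 throughout, so no level was read from these rows.

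RNA was sequenced from NK92MI, a line of human natural killer (NK) cells in which an introduced IL2 gene replaces the cytokine otherwise added to the medium. The cells received DMSO, the solvent (2 libraries), or 10 µM UNC1999, an inhibitor of the histone methyltransferases EZH2 and EZH1 (3 libraries), for 48 h. All libraries came from this 1 line, and the labels do not state whether the libraries are separate cultures. The p-values therefore reflect the spread among these libraries alone, and that spread may be technical. The comparison asks how the genes of each decay step responded to UNC1999.

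Most messenger RNAs are removed in a fixed order. The poly(A) tail is shortened by the PAN2-PAN3 and CCR4-NOT complexes, after which the cap is cut off by DCP2 and the body is digested from the 5′ end by XRN1, or the body is digested from the 3′ end by the exosome. NMD feeds transcripts with a premature stop codon into these routes, and proteins such as ZFP36 bring in transcripts that carry AU-rich elements in the 3′ untranslated region.

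Total counts lay between 8442908 and 8748106 per library. NK markers were present (7 of 8 above 0, summed level 5837 to 6618 CPM, counts scaled to a common library size), NCR3 being listed at 0. Summed markers of T, B, erythroid and epithelial cells stayed under 0.835 CPM in every library, and the myeloid markers CD14, LYZ and CSF1R summed to 5.23 to 6.96 CPM. Listed at 0 in all 5 libraries were 3 of 5 T, 2 of 3 B, 1 of 3 myeloid, 1 of 2 erythroid and 2 of 3 epithelial markers. As for PARN, no level was read from such rows, so these sums rest on the remaining markers. UNC1999 replicate 2 stood apart from the other UNC1999 libraries (chi-square per degree of freedom of 8.10 and 9.49, against 1.87 between replicates 1 and 3 and 3.30 between the DMSO libraries).

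XRN1, the cytoplasmic exonuclease that degrades decapped RNA, rose by 1.54 ± 0.14 (log2 fold change ± SE, n = 2 and n = 3), and DCP2, the enzyme that removes the cap, by 0.89 ± 0.12. Their edgeR adjusted p-values were 5.75e-10 and 5.1e-07. UPF2, an NMD core factor, PAN3 and CNOT6L, of the deadenylases, and the exosome nuclease DIS3 were also higher. Of these only UPF2 was still called after a correction for GC content and transcript length. CNOT1, XRN2 and EXOSC4 were higher and still called after the correction, though none of their calls held under every other setting tried. UPF3B and CNOT6 were higher but not called after it. SMG8, CNOT11, EXOSC2, EXOSC3 and ZFP36L1 were lower, of which only EXOSC3 was still called after it. Of the 44 tested members, 11 were called higher (25%) and 5 lower (11.4%) at an edgeR adjusted p under 0.05, beside 15.7% higher and 19.5% lower among all tested genes (35.2% in either direction). The median log2 fold change was 0.01 for the members and -0.01 for all tested genes. Without DMSO replicate 1 the counts were 4 higher and 2 lower, and without UNC1999 replicate 2 they were 14 and 9.

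**Figure D1:**
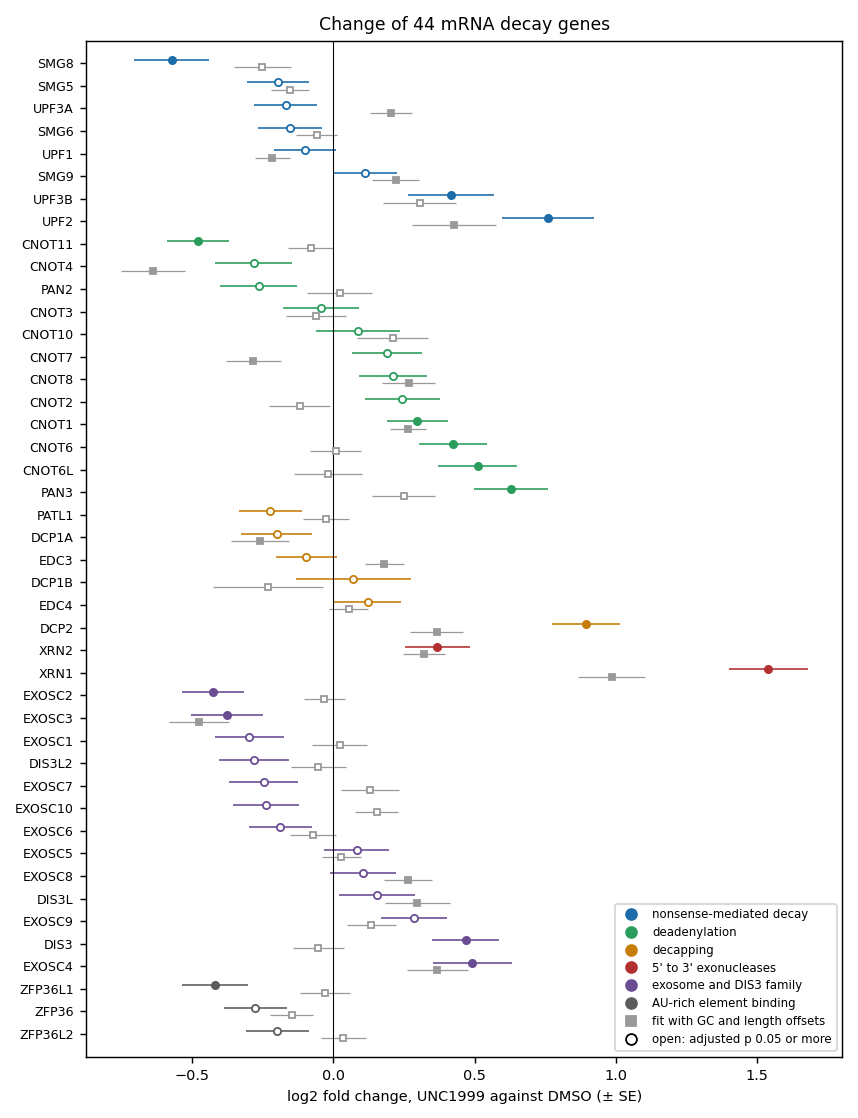
Log2 fold change (UNC1999 against DMSO, ± SE) of the 44 tested members, by step; coloured circles are the fit of the counts, grey squares the fit with GC content and length offsets, and filled symbols have an edgeR adjusted p under 0.05. XRN1 (1.54) and DCP2 (0.89) lie farthest to the right, and SMG8 (-0.57) farthest to the left among the circles.

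Fold changes over all genes varied with the GC content of the transcripts, though not in 1 direction. Tested genes were split into 4 equal bins of GC content. In the lowest bin (27.6 to 42.1%), 43.8% were called higher and 6.15% lower, while in the third bin (48.4 to 56.5%) 1.56% were higher and 40.9% lower. The second bin lay between them (13.9% higher, 29.7% lower), and the bin of highest GC content (56.5 to 85.5%) turned back, with 8.28% higher, 4.80% lower and a median log2 fold change of 0.07. Of the 14 members in the lowest bin 8 were higher and 1 lower, of the 12 in the second bin 2 were higher and 1 lower, of the 11 in the third bin 0 were higher and 3 lower, and of the 7 in the highest bin 1 was higher and 0 lower. Across the 44 members Pearson's r of log2 fold change was -0.44 with GC content (Spearman's rho -0.46) and 0.39 with log2 transcript length (rho 0.42). The members share libraries, so these are descriptions across genes. The members were therefore also fitted with offsets that take each library's smooth trend with GC content and transcript length out of the counts. Such offsets would also remove a response that itself follows GC content or length.

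With offsets 12 members were higher (27.3%) and 5 lower (11.4%), beside 16.1% and 17.8% of all genes tested in that fit. These were partly other members. Called in the same direction by both fits were 6 higher members (UPF2, CNOT1, DCP2, XRN1, XRN2 and EXOSC4) and 1 lower member (EXOSC3). Only without offsets, 5 were higher (UPF3B, CNOT6, CNOT6L, PAN3 and DIS3) and 4 lower (SMG8, CNOT11, EXOSC2 and ZFP36L1). Only with offsets, 6 were higher (UPF3A, SMG9, CNOT8, EDC3, EXOSC8 and DIS3L) and 4 lower (UPF1, CNOT4, CNOT7 and DCP1A). Below, a value "with offsets" is from the second fit.

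**Figure D2:**
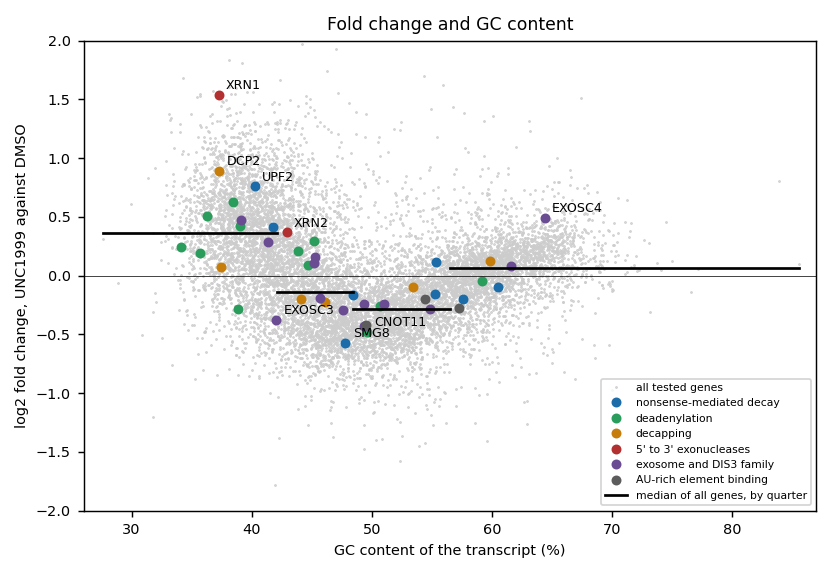
Log2 fold change (UNC1999 against DMSO) against GC content of the transcript in percent, for all tested genes with a GC content (grey) and the 44 members (coloured by step), with the median of all genes in each bin of GC content (black lines); genes beyond a log2 fold change of 2 or -2 lie outside the plot. XRN1, DCP2 and UPF2 lie above the 0.36 median of the lowest bin. EXOSC3 (-0.37) lies at 42.03% GC content, close to that bin's upper edge of 42.10%. It is below that median and also below the -0.14 median of the next bin.

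XRN1 and XRN2 are the paired exonucleases of the 5′ to 3′ route, XRN1 in the cytoplasm and XRN2 in the nucleus, where it also takes part in ending transcription. XRN1 had 16.6 and 20.6 CPM in the DMSO libraries and 52.2, 48.3 and 61.9 CPM in the UNC1999 libraries. Every UNC1999 library was thus above both DMSO libraries by more than the spread within either group. The log2 fold change was 1.54 ± 0.14 (SE), and 0.98 with offsets (edgeR adjusted p = 1.65e-08). XRN2 had 82.3 and 82.7 CPM in DMSO and 100.1, 119.7 and 99.4 CPM in UNC1999, with 0.37 as its log2 fold change (edgeR adjusted p = 0.0108; 0.32 with offsets). The groups did not overlap, but leaving out either DMSO library ended the call (edgeR adjusted p = 0.12 without replicate 1 and 0.103 without replicate 2).

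Per kilobase of the longest annotated transcript, XRN2 was at 24.0 and XRN1 at 1.83 CPM per kilobase in DMSO. In UNC1999 the levels were 31.0 and 5.34. The log2 ratio of XRN2 to XRN1 counts within a library was 2.31 and 2.00 in DMSO and 0.94, 1.31 and 0.68 in UNC1999. All 3 UNC1999 ratios were below both DMSO ratios, a difference of -1.18 (two-sided exact permutation p = 0.1, the smallest that 2 against 3 libraries allow; adjusted p = 0.25 over 10 pairs). With offsets the difference between the fold changes of these genes was -0.66.

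DCP2 is the catalytic subunit of the decapping enzyme, while DCP1A, DCP1B, EDC3, EDC4 and PATL1 activate it or hold it to the transcript. DCP2 had 32.7 and 32.3 CPM in DMSO and 62.4, 58.7 and 60.2 CPM in UNC1999. The libraries of each group were close together and the groups far apart. Its log2 fold change of 0.89 became 0.37 with offsets (edgeR adjusted p = 0.00186). XRN1 and DCP2 were the 2 of the 16 called members that were called in the same direction in all 15 alternatives.

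The other decapping members were not called without offsets, with log2 fold changes from -0.22 (PATL1) to 0.12 (EDC4). EDC4, the scaffold of the complex, had 266.8 and 214.8 CPM in DMSO and 275.6, 223.4 and 286.7 CPM in UNC1999, with overlapping groups. EDC3 had 151.0 and 137.4 CPM in DMSO against 132.7, 132.1 and 140.2 CPM in UNC1999 (log2 fold change -0.10), and its value turned to 0.18 with offsets (edgeR adjusted p = 0.0397). DCP1A had 31.7 and 32.1 CPM in DMSO and 27.8, 28.95 and 26.5 CPM in UNC1999 (-0.20, and -0.26 with offsets, edgeR adjusted p = 0.0481). DCP1B, its relative, was the member with the fewest counts among those tested, at 5.97 and 8.22 CPM in DMSO and 8.83, 7.32 and 6.27 CPM in UNC1999. The ratio of DCP1B to DCP1A overlapped between the groups (exact permutation p = 0.5).

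The promoters of XRN1 and DCP2 are shown because these members rose under every setting. They are the 250 bases before the RefSeq start site in GRCh38.p14, with letters in capitals where a script found 1 of 4 motifs on either strand: GGGCGG (a GC box), CCAAT, CCGGAAGT (an ETS site) and the palindromic NRF1 motif.
XRN1, chr3:142448038-142448287, minus strand: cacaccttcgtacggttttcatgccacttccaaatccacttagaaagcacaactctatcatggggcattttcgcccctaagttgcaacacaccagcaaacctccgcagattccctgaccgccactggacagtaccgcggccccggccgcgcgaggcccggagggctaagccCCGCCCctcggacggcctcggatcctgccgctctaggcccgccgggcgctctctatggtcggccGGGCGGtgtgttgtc
DCP2, chr5:112976548-112976797, plus strand: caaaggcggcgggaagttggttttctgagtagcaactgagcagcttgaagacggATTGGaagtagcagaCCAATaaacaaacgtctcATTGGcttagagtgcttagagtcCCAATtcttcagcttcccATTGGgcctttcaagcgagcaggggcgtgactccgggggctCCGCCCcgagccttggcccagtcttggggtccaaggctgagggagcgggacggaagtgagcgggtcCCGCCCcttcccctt
Both held 2 GC boxes, and DCP2 also held 5 CCAAT motifs where XRN1 held 0. Of 34788 promoter windows of this length, 42.6% held a GC box, 32.0% CCAAT, 3.41% the ETS letters and 1.02% the NRF1 letters. Neither promoter held the ETS or NRF1 letters, which says nothing about the factors. Promoters were found for 39 of the 45 members.

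**Figure D3:**
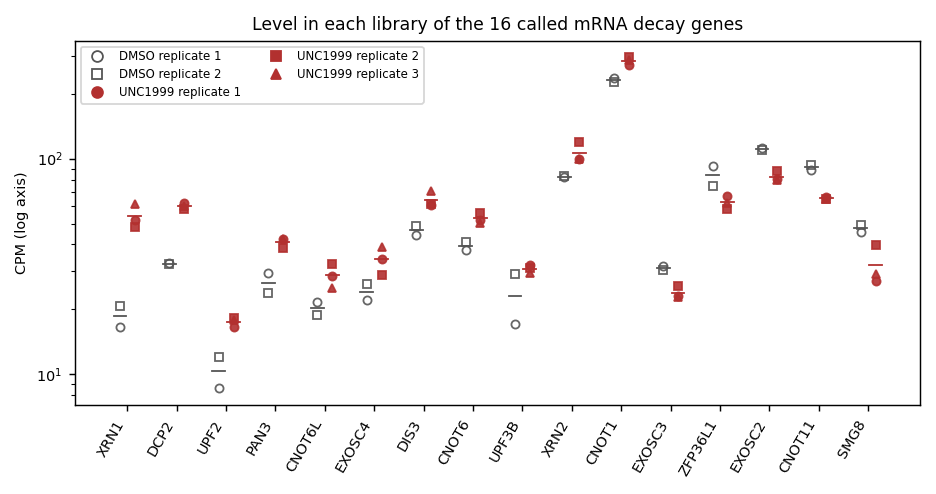
Level in each library (CPM, log axis) of the 16 members called without offsets, from the highest to the lowest fold change; open grey symbols are DMSO, filled red symbols UNC1999, and lines the group means. All 3 UNC1999 libraries lie above both DMSO libraries for the 11 members on the left and below them for the 5 on the right.

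In NMD, the helicase UPF1 is bound and activated by UPF2 and UPF3B, and SMG5, SMG6, SMG8 and SMG9 act on its phosphorylation or cut the target. Of the 8 members, 2 were higher (UPF2 and UPF3B, 25%) and 1 lower (SMG8, 12.5%), beside 15.7% and 19.5% of all tested genes. With offsets 3 were higher (37.5%) and 1 lower (12.5%), beside 16.1% and 17.8%. The median log2 fold change of the step was -0.13 (0.07 with offsets). UPF2 had 8.59 and 12.04 CPM in DMSO and 16.5, 18.1 and 17.9 CPM in UNC1999. All UNC1999 libraries were higher, although the DMSO libraries differed from each other by more than the UNC1999 libraries did. The log2 fold change was 0.76 ± 0.16 (SE; edgeR adjusted p = 0.000343), 0.43 with offsets (edgeR adjusted p = 0.022) and 0.54 when DMSO replicate 1 was left out (edgeR adjusted p = 0.0539).

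UPF3B had 17.1 and 29.1 CPM in DMSO and 32.1, 31.0 and 29.4 CPM in UNC1999. Its highest DMSO library nearly reached the lowest UNC1999 library. UPF3B's fold change of 0.42 on the log2 scale (edgeR adjusted p = 0.0287) was 0.08 without DMSO replicate 1, and its call was also lost with offsets, with the DESeq2 test and without UNC1999 replicate 1. UPF3A, the relative that can stand in for UPF3B, had 90.8 and 97.5 CPM in DMSO and 80.1, 92.5 and 78.7 CPM in UNC1999 (log2 fold change -0.17, and 0.20 with offsets, edgeR adjusted p = 0.0337). UPF3A was called in the opposite direction when UNC1999 replicate 2 was left out (-0.24, edgeR adjusted p = 0.023). The log2 ratio of UPF3A to UPF3B was 2.41 and 1.74 in DMSO and 1.32, 1.57 and 1.42 in UNC1999, without overlap (exact permutation p = 0.1; difference -0.64, -0.97 without DMSO replicate 2, -0.31 without DMSO replicate 1 and -0.10 with offsets).

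SMG8, a subunit that restrains the NMD kinase SMG1, had 45.8 and 49.2 CPM in DMSO and 27.1, 39.6 and 29.2 CPM in UNC1999. Replicate 2 was the highest of the UNC1999 libraries and still below both DMSO libraries. The log2 fold change was -0.57 ± 0.13 (SE; edgeR adjusted p = 0.00086), and -0.25 with offsets, where it was not called (edgeR adjusted p = 0.0548). SMG9, its partner, had 59.6 and 58.4 CPM in DMSO and 62.6, 60.3 and 68.4 CPM in UNC1999 (0.11, and 0.22 with offsets, edgeR adjusted p = 0.0352). UPF1 had the highest CPM of the members, before division by length, with 444.9 and 403.4 CPM in DMSO and 419.2, 350.7 and 416.6 CPM in UNC1999. Its groups overlapped (log2 fold change -0.10), and with offsets it was lower (-0.21, edgeR adjusted p = 0.0062). The endonuclease gene SMG6 (130.2 and 126.4 CPM in DMSO, 127.3, 100.7 and 118.4 CPM in UNC1999) and SMG5 (253.8 and 236.9 CPM in DMSO, 207.1, 199.3 and 235.9 CPM in UNC1999) were called in neither fit.

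Deadenylation members had a median log2 fold change of 0.20 (-0.01 with offsets). Of 12 tested 4 were called higher (33.3%) and 1 lower (8.33%), beside 15.7% and 19.5% of all tested genes. With offsets 2 were higher (16.7%) and 2 lower (16.7%), near the 16.1% and 17.8% of all genes in that fit. CNOT1, the scaffold on which the CCR4-NOT complex is built, had 237.0 and 227.1 CPM in DMSO and 272.4, 295.5 and 287.7 CPM in UNC1999. The groups did not overlap and the difference was small, 0.30 on the log2 scale (edgeR adjusted p = 0.0283; 0.26 with offsets, edgeR adjusted p = 0.00132). The CNOT1 call was lost with a replicate block (edgeR adjusted p = 0.0741) and when DMSO replicate 1 or 2 (0.15 and 0.234) or UNC1999 replicate 1 or 3 (0.0591 and 0.0852) was left out.

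CNOT6 and CNOT6L are alternative catalytic subunits of the complex. CNOT6 had 37.7 and 41.1 CPM in DMSO and 52.2, 55.9 and 50.5 CPM in UNC1999 (log2 fold change 0.42, edgeR adjusted p = 0.00498). CNOT6L had 21.5 and 18.8 CPM in DMSO and 28.5, 32.6 and 25.1 CPM in UNC1999 (0.51, edgeR adjusted p = 0.00394). Both were higher in every UNC1999 library, and neither was called with offsets (0.01 and -0.02). Leaving out DMSO replicate 1 also ended the CNOT6 call (edgeR adjusted p = 0.123), and leaving out DMSO replicate 2 that of CNOT6L (0.107). Their ratio overlapped between the groups (difference 0.08, exact permutation p = 0.6).

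CNOT7 and CNOT8, the other pair of alternative catalytic subunits, were not called without offsets. CNOT7 had 39.0 and 41.1 CPM in DMSO and 48.2, 49.3 and 39.6 CPM in UNC1999 (log2 fold change 0.19, and -0.28 with offsets, edgeR adjusted p = 0.021). CNOT8 had 38.1 and 37.1 CPM in DMSO and 40.2, 46.8 and 43.5 CPM in UNC1999 (0.21, and 0.27 with offsets, edgeR adjusted p = 0.0239). The log2 ratio of CNOT8 to CNOT7 overlapped between the groups (difference 0.02, exact permutation p = 0.9), while the fold changes with offsets differed by 0.55. CNOT7 has a GC content of 35.7% and CNOT8 of 43.9%.

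CNOT11, a subunit that binds the N-terminal part of CNOT1, had 88.9 and 93.6 CPM in DMSO and 66.3, 65.0 and 65.1 CPM in UNC1999. The UNC1999 libraries were nearly identical and all lower. CNOT11 had a log2 difference of -0.48 ± 0.11 (SE; edgeR adjusted p = 0.000708), and of -0.08 with offsets, where it was not called. CNOT4, a ubiquitin ligase subunit, had 26.5 and 26.6 CPM in DMSO and 20.0, 25.3 and 20.1 CPM in UNC1999, a log2 fold change of -0.28 that was not called. CNOT4 had the lowest value of all members with offsets, -0.64 (edgeR adjusted p = 2.28e-05). CNOT2 (0.24), CNOT3 (-0.04) and CNOT10 (0.09) were called in neither fit.

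PAN3 recruits the nuclease PAN2 to the poly(A) tail. PAN3 had 29.4 and 23.7 CPM in DMSO and 42.6, 38.3 and 42.2 CPM in UNC1999, all higher (log2 fold change 0.63 ± 0.13 SE, edgeR adjusted p = 0.000229; 0.25 with offsets, edgeR adjusted p = 0.0806). PAN2 had 29.1 and 22.8 CPM in DMSO and 22.3, 22.2 and 20.3 CPM in UNC1999 (-0.26, not called; 0.02 with offsets). The log2 ratio of PAN3 to PAN2 was 0.01 and 0.06 in DMSO and 0.93, 0.79 and 1.05 in UNC1999. That ratio separated the groups by 0.89 (exact permutation p = 0.1), and the fold changes with offsets differed by 0.23.

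**Figure D4:**
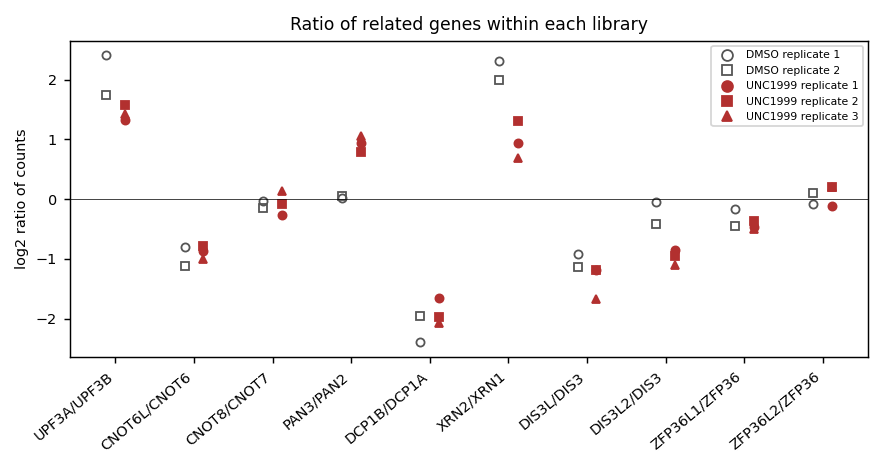
Log2 ratio of the counts of 2 related genes in each library, for 10 pairs; open grey symbols are DMSO and filled red symbols UNC1999. PAN3/PAN2 is higher in all UNC1999 libraries, UPF3A/UPF3B, XRN2/XRN1 and DIS3L2/DIS3 are lower, DIS3L/DIS3 is lower by a small margin, and the other pairs overlap.

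The exosome is a ring of 6 subunits (EXOSC4 to EXOSC9) capped by EXOSC1, EXOSC2 and EXOSC3, to which the nucleases EXOSC10 and DIS3 attach. Of the 13 genes of this step 2 were higher (EXOSC4 and DIS3, 15.4%) and 2 lower (EXOSC2 and EXOSC3, 15.4%). These shares were near the 15.7% and 19.5% of all tested genes. With offsets 3 were higher (23.1%) and 1 lower (7.69%), beside 16.1% and 17.8%. The median log2 fold change of the step was -0.19 (0.03 with offsets). EXOSC3 had 31.6 and 30.4 CPM in DMSO and 23.0, 25.8 and 22.9 CPM in UNC1999. It was lower in every UNC1999 library, with a log2 difference of -0.37 (edgeR adjusted p = 0.0199) and -0.47 with offsets (edgeR adjusted p = 0.00055). The EXOSC3 call was lost in 8 of the 15 alternatives (edgeR or DESeq2 adjusted p = 0.0628 to 0.147), those without normalization factors, with upper-quartile factors, with a replicate block, with the DESeq2 test and without any 1 library other than UNC1999 replicate 2.

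EXOSC2 had 112.0 and 109.2 CPM in DMSO and 80.1, 87.4 and 79.4 CPM in UNC1999. The fold change of EXOSC2 on the log2 scale, -0.43 ± 0.11 (SE; edgeR adjusted p = 0.00214), became -0.03 with offsets, and the call ended when DMSO replicate 1 was left out (edgeR adjusted p = 0.0511). EXOSC4 had 22.0 and 26.3 CPM in DMSO and 34.3, 28.95 and 39.0 CPM in UNC1999. It was higher in every UNC1999 library (0.49, edgeR adjusted p = 0.00492; 0.37 with offsets) and had the highest GC content of all members, 64.4%. The EXOSC4 call ended when DMSO replicate 1 was left out (edgeR adjusted p = 0.158).

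The other ring and cap subunits and EXOSC10 were not called without offsets, with values from -0.30 (EXOSC1) to 0.28 (EXOSC9). EXOSC5, the most abundant of them per length, had 149.5 and 154.9 CPM in DMSO and 167.2, 137.9 and 178.6 CPM in UNC1999, with overlapping groups. EXOSC10 had 148.7 and 121.7 CPM in DMSO and 108.9, 128.5 and 106.4 CPM in UNC1999, also overlapping. EXOSC6 had 70.9 and 73.7 CPM in DMSO and 62.3, 63.7 and 64.6 CPM in UNC1999, and EXOSC8 had 51.5 and 56.7 CPM in DMSO and 56.3, 63.5 and 55.1 CPM in UNC1999. EXOSC8 was called with offsets (0.26, edgeR adjusted p = 0.0128).

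DIS3 is the main catalytic subunit of the nuclear exosome, DIS3L its cytoplasmic counterpart, and DIS3L2 works without the exosome on RNAs with a uridine tail. DIS3 had 44.3 and 48.6 CPM in DMSO and 61.1, 61.5 and 70.5 CPM in UNC1999 (log2 fold change 0.47, edgeR adjusted p = 0.00192). It was higher in all UNC1999 libraries, but had -0.05 with offsets and was not called when DMSO replicate 1 was left out (edgeR adjusted p = 0.0811). DIS3L had 23.4 and 22.0 CPM in DMSO and 26.7, 27.0 and 22.1 CPM in UNC1999 (0.15, and 0.30 with offsets, edgeR adjusted p = 0.0405). DIS3L2 had 42.8 and 36.6 CPM in DMSO and 33.7, 31.7 and 32.6 CPM in UNC1999 (-0.28, not called). The log2 ratio of DIS3L to DIS3 was lower in all UNC1999 libraries by a small margin (difference -0.32, exact permutation p = 0.3), and turned to 0.35 with offsets. The log2 ratio of DIS3L2 to DIS3 was -0.05 and -0.41 in DMSO and -0.86, -0.96 and -1.11 in UNC1999, without overlap (exact permutation p = 0.1). With offsets the fold changes of DIS3L2 and DIS3 differed by -0.00046.

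**Figure D5:**
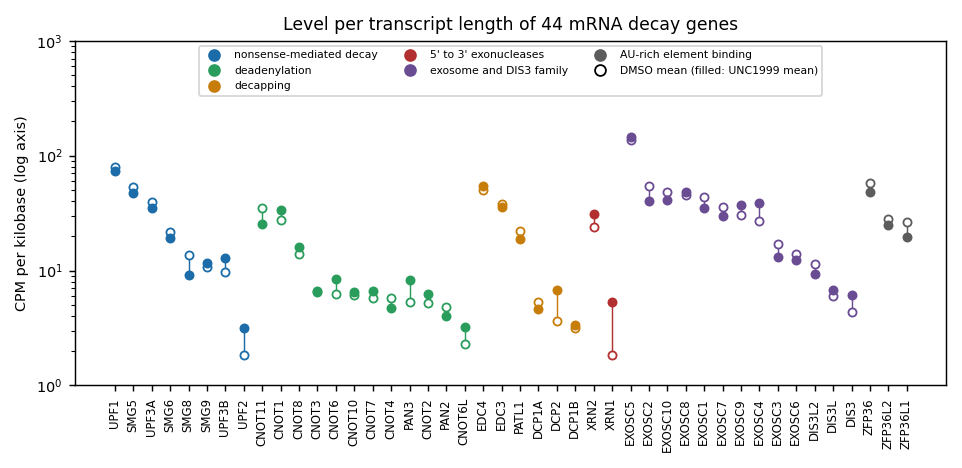
Group mean level per kilobase of transcript (CPM per kilobase, log axis) of the 44 members by step, open for DMSO and filled for UNC1999, ordered within a step by the DMSO level. XRN1 (1.83 in DMSO) and UPF2 (1.85) are the lowest in DMSO, and EXOSC5 (136.1) is the highest.

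Per transcript length, the levels of members that act together differed widely. In DMSO, UPF1 was at 79.3 and its partner UPF2 at 1.85 CPM per kilobase, EXOSC5 at 136.1 and EXOSC6 at 14.0, and EDC4 at 50.2 and DCP2 at 3.63. XRN1, UPF2, CNOT6L, DCP1B and DCP2 had the lowest levels per length. These levels rest on the longest annotated transcript, and shorter isoforms would raise them.

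ZFP36, ZFP36L1 and ZFP36L2 bind the AU-rich nonamer TTATTTATT (written as DNA) in 3′ untranslated regions and recruit CCR4-NOT. Their own transcripts carry it, as do those of some known targets, and the first site of each is shown with the nonamer in capitals (GENCODE 29 transcripts).
ZFP36: tgacgactTTATTTATTctaatatg
ZFP36L1: ctgttggaTTATTTATTttagaaat
ZFP36L2: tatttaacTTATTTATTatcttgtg
TNFAIP3: aattcactTTATTTATTttattaca
PIM1: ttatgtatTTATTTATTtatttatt
The nonamer was found in the 3′ untranslated region of 5 members, the ZFP36 genes with UPF1 and EXOSC6, and in 9.16% of 10234 tested genes with such a region.

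ZFP36L1 had 92.7 and 74.8 CPM in DMSO and 67.2, 58.5 and 62.3 CPM in UNC1999, lower in every UNC1999 library. Its log2 fold change was -0.42 ± 0.12 (SE; edgeR adjusted p = 0.00446), -0.26 when DMSO replicate 1 was left out (edgeR adjusted p = 0.255) and -0.03 with offsets. ZFP36 had 104.4 and 102.4 CPM in DMSO and 93.3, 75.3 and 87.8 CPM in UNC1999, which did not overlap, but was not called (-0.28, edgeR adjusted p = 0.0542; -0.15 with offsets). ZFP36L2 had 98.7 and 110.4 CPM in DMSO and 85.8, 86.3 and 101.5 CPM in UNC1999, with overlapping groups (-0.20). The ratios of ZFP36L1 and of ZFP36L2 to ZFP36 overlapped between the groups (exact permutation p = 0.4 and 0.6).

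Counting libraries rather than calls, 15 of the 44 members (34.1%) had all UNC1999 libraries above both DMSO libraries and 15 (34.1%) had all below. Among all tested genes the shares were 24.2% and 30.4%. In GENCODE 29, 20 of the 45 members share exon bases with a gene on the opposite strand, among them CNOT1 (with SETD6), CNOT11 (with TBC1D8), EXOSC3 (with DCAF10), DIS3 (with BORA and PIBF1), XRN2 and EXOSC4. The sources used here do not say whether counting used the strand, so reads of such pairs may not be told apart. On the same strand 8 members overlap a gene, among them SMG8 (with AC099850.2), PAN2 (with CNPY2), EXOSC3 and EXOSC4. The strand would not tell those reads apart. Named pseudogenes exist for 6 members. XRN1, DCP2 and UPF2 have no overlapping partner on either strand and no named pseudogene.

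Of 70 further genes of these decay steps, 65 were tested, of which 12 were higher (18.5%) and 26 lower (40%). Among all tested genes 15.7% were higher and 19.5% lower. With offsets 11 of the further genes were higher (16.9%) and 26 lower (40%), beside 16.1% and 17.8% of all genes in that fit. The median log2 fold change of the further genes was -0.14 (-0.11 with offsets). Beside the NMD members, SMG1, the kinase that phosphorylates UPF1, rose from 89.9 and 95.2 CPM to 264.9, 248.7 and 268.4 CPM (log2 fold change 1.49, with offsets 1.15), although its near-identical partial copies make its counts uncertain. EIF4A3, of the exon junction complex, was lower (log2 fold change -0.49, with offsets -0.11, not called). In all, 1 of these 12 further NMD genes was higher (8.33%) and 5 lower (41.7%).

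Beside the deadenylation members 1 of 13 was higher (7.69%) and 7 lower (53.8%), against 15.7% and 19.5% of all tested genes. TNRC6A, which recruits CCR4-NOT to microRNA targets, rose (0.66, with offsets 0.68). The poly(A)-binding protein genes PABPC4 (-0.75, with offsets -0.45) and PABPC1 (-0.61, with offsets -0.25) fell, PABPC1 from 2147 and 2023 CPM to 1320, 1472 and 1297 CPM. Beside the decapping members 1 of 13 tested was higher (7.69%) and 6 lower (46.2%). DDX6, the helicase that joins deadenylation to decapping, rose from 53.1 and 58.3 CPM to 89.4, 94.2 and 91.1 CPM (0.72, with offsets 0.35). LSM5 (-0.80, with offsets -1.11) and LSM6 (-0.56, with offsets -0.77), of the LSM ring that binds the shortened tail and also, in its nuclear form, U6 RNA, fell. Other ring genes, named after their values were seen, differed. LSM3 was lower (-0.46, with offsets -0.21). LSM1 (-0.21, with offsets 0.09), LSM4 (-0.05, with offsets -0.02) and LSM7 (-0.14, with offsets -0.18) were called in neither fit.

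Among exosome cofactors 5 of 15 tested were higher (33.3%) and 3 lower (20%), against 15.7% and 19.5% of all tested genes. ZFC3H1, of a nuclear adaptor complex, rose (0.99, with offsets 0.65), as did ZCCHC11, a terminal uridylyltransferase whose tails DIS3L2 recognises (0.87, with offsets 0.52). WDR61, of the SKI complex, fell (-0.49, with offsets -0.14, not called). TTC37, the scaffold of that complex, named after its values were seen, was higher (0.73, with offsets 0.24, not called). PAPD7, a poly(A) polymerase, fell (-0.41, with offsets -0.44; call lost without DMSO replicate 1). Among other RNA-binding regulators 4 of 12 tested were higher (33.3%) and 5 lower (41.7%). RC3H2 (0.94, with offsets 0.41) and PUM2 (0.72, with offsets 0.39), which promote decay, rose. ELAVL1, which protects AU-rich transcripts (-0.56, with offsets -0.45), and YTHDF2, a reader of methylated adenosine that promotes decay (-0.57, with offsets -0.24), fell. HNRNPD (-0.49, with offsets -0.59) and ZC3H12A (-0.37, with offsets -0.40), which also promote decay and were named after their values were seen, were lower too. The ZC3H12A call was lost in 7 of the 15 alternatives. Promoters of decay were thus called in both directions.

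Genes with transcripts known as substrates were listed separately. Counts are per gene symbol, so for genes such as SRSF2, SRSF3 and SRSF7 a target isoform is not told apart from the others. Of 14 known NMD targets 1 was higher (7.14%) and 3 lower (21.4%), beside 15.7% and 19.5% of all tested genes. With offsets 3 were higher (21.4%) and 2 lower (14.3%), beside 16.1% and 17.8%. Those higher with offsets, named after their values were seen, were GAS5 (0.43), SNHG1 (0.37) and GADD45B (0.25). Those lower with offsets were ATF4 and SRSF3 (-0.58). The median log2 fold change of the targets was -0.20 (0.07 with offsets). Without offsets, the lower targets with the smallest p were ATF4 (-0.62, with offsets -0.46) and ATF3 (-0.56, with offsets -0.17, not called). Both are also controlled by the stress response. The ATF3 call was also lost with the DESeq2 test, without DMSO replicate 1 and without UNC1999 replicate 3. SRSF7 was higher (0.32, with offsets 0.14, not called, and not called without DMSO replicate 1 or DMSO replicate 2).

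Of 14 transcripts known to hold AU-rich elements 8 were tested, of which 0 were higher and 3 lower (37.5%) in both fits. Among all tested genes 15.7% were higher and 19.5% lower, and 16.1% and 17.8% with offsets. TNF, CSF2, LTA, CCL3 and IER3 were listed at 0 in all 5 libraries, so no level was read from these rows. CXCL8 had at most 4 counts in a library. Among the 8 tested, the site search found the nonamer in TNFAIP3, PIM1, FOS and DUSP1, and it did not cover MYC. Over all 937 tested genes with the nonamer the median log2 fold change was 0.11 (-0.0091 with offsets), against -0.011 (0.016) for the 9297 without it. MYC fell from 183.4 and 176.0 CPM to 79.6, 90.1 and 93.9 CPM (-1.03, with offsets -0.74), and TNFAIP3 from 70.8 and 61.3 CPM to 33.5, 31.1 and 39.0 CPM (-0.93, with offsets -0.62). The third was IL2, which this line also carries as an introduced gene, a possible source of its reads. PIM1, whose site is printed above, was not called (-0.20, with offsets -0.01). Levels of RNA do not separate synthesis from decay, so these values do not measure the rate of either.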

How the data were processed

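The deposited table gives, for each gene symbol, raw counts of reads in the 5 libraries as the authors made them. Per the submitters' processing notes, the tools were STAR 2.7.9 and fastp, HTSeq 0.13.5 with hg19, and edgeR 3.34.0. The sources used here do not state settings, annotation or the handling of multi-mapping reads. Genes passing filterByExpr were tested with edgeR 4.0.16 (R 4.3.3; TMM factors, quasi-likelihood F-test, group as the only term, Benjamini-Hochberg over 13075 genes, threshold 0.05). SE is the log2 fold change divided by the square root of F. CPM were scaled by the TMM factors.

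GC content and length came from the longest basic transcript in GENCODE 29 (GRCh38, not the authors' hg19), matched by symbol or RefSeq synonym for 11250 tested genes. Offsets were splines (6 and 4 degrees of freedom) fitted, per library, to how far its log counts lay from the average library. Ratios of related genes used a prior count of 0.5 and exact permutation over 10 splits. Alternatives included DESeq2 1.42.0 and limma-voom 3.58.1. The edgeR steps were also run on counts simulated without a trend with GC content or length. That run did not test them under the trend seen here.

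The members, lists and alternatives were chosen with earlier results of these data known. Members named in full were, per step, up to 5 called ones by smallest p, up to 3 abundant ones not called, and related pairs; of other lists, the 2 called genes of smallest p per direction. Further members were named to account for all 45. The result of 1 gene this rule would name is not reported here.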

Additional observations from a re-analysis of the deposited data

How the results depend on the processing

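Of 15 alternatives to the edgeR fit, the counts of members called (11 higher, 5 lower) ranged over 10 to 14 and 4 to 5 for the 10 that kept all libraries, and over 4 to 14 and 2 to 9 for the 5 that left out 1 library each. The lowest counts, 4 and 2, came without DMSO replicate 1, which leaves 1 DMSO library whose spread is taken from the UNC1999 libraries, and 9 lower came without UNC1999 replicate 2. Calls over all genes (2057 higher, 2546 lower) ranged over 1159 to 2862 and 1368 to 3030 with 1 library left out. Without normalization factors they were 2951 and 1738, with a median log2 fold change of all tested genes of 0.09 in place of -0.01, and 14 and 4 members were called. With upper-quartile factors they were 2625 and 2021. The further decay genes (12 higher, 26 lower) ranged over 12 to 15 and 18 to 29 with 1 library left out. With a replicate block 10 members were higher and 4 lower, against 11 and 5. The replicate numbers were not treated as pairs, since the labels give them no shared origin (correlation of replicate 1 minus 2 between the groups, 0.06 over genes). Among members and further decay genes called in either fit, the signs of 9 turned with GC content and length offsets: UPF3A (0.20), EDC3 (0.18) and RNPS1 (0.22) to above 0, and CNOT6L (-0.019), CNOT7 (-0.28), DIS3 (-0.053), TNRC6B (-0.23), PDE12 (-0.37) and RBM7 (-0.46) to below 0, and the cause was not tested. With 1 library left out, an alternative added after seeing the data, the UNC1999 minus DMSO difference in log2 ratio was -0.079 to 0.24 for CNOT6L/CNOT6, -0.078 to 0.12 for CNOT8/CNOT7, -0.27 to 0.0076 for ZFP36L1/ZFP36 and -0.013 to 0.19 for ZFP36L2/ZFP36; the other 6 pairs kept their sign. A prior count of 2 turned no sign. At this depth 3 counts correspond to 0.343 to 0.355 CPM.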
